A study of Drosophila melanogaster with 2 samples.

Results

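Insulator and promoter-binding proteins partition the fly genome, and the genes that encode 10 of them are described here: BEAF-32, M1BP, Chro, Cp190, CTCF, su(Hw), mod(mdg4), pita, ZIPIC and Ibf1. They were taken by name from 13968 protein-coding genes on 7 chromosome arms, and a peak was counted for a gene where its summit lay in the gene or within 1 kb of it. What was mapped on them is the product of CG4730, tagged with eGFP (enhanced green fluorescent protein) in Drosophila melanogaster, by immunoprecipitation of sonicated chromatin with an antibody to GFP and sequencing (ChIP-seq). The study has 1 group, whole embryos of 0 to 24 hours from the CG4730-GFP strain, with 2 biological replicates. With 1 group no test between groups could be made, and every value below describes where CG4730-eGFP peaks lay.

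Insulator proteins limit contact between a regulatory element and genes beyond a boundary. BEAF-32, CTCF, Su(Hw), Pita, ZIPIC and Ibf1 bind DNA, mostly through zinc fingers, and bring in cofactors that do not read a sequence of that kind themselves. Cp190 is the cofactor that most of them share, Mod(mdg4) is the BTB-domain partner of Su(Hw), and Chromator, encoded by Chro, sits with BEAF-32 at active promoters and at the interbands of polytene chromosomes. M1BP binds a core promoter element called Motif 1, common at genes active in most cells, and BEAF-32 binds clusters of CGATA that overlap the DNA replication-related element (DRE) recognised by the factor Dref. Peaks at these genes do not show where their proteins bind.

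The authors gave 4 sets of peaks that passed a threshold on the irreproducible discovery rate (IDR, the estimated share of entries at least as good as a given one that would not recur in the compared input). These are a pooled set of 3571 peaks, a conservative set of 3263, and the own sets of replicate 1 with 2309 and replicate 2 with 2434. Each has a longer ranked list before the threshold, with 143047 entries in the pooled one. The signal of a peak is the authors' own value, with no stated unit, and pooled signals were about the sum of the replicates' signals, so values are compared only within a list. The sources used here do not give the read depth. Of 3551 pooled peaks on the arms, 1744 (49.1%) overlapped a peak of both replicates' own sets, and over these the ratio of replicate 2 to replicate 1 signal had a median of 0.981 (5th to 95th percentile 0.664 to 1.48). Coordinates are on dm6 and count from 1.

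In the pooled set 5 of the 10 genes had a peak, against 22.7% of protein-coding genes. They were BEAF-32, M1BP, Chro, mod(mdg4) and pita, with 7 peaks between them. The conservative set held 6 of the 10, adding Cp190, against 21.3% of protein-coding genes. Replicate 1's own set held the same 6 genes, against 16.6%, and replicate 2's own set 7, adding CTCF, against 17.4%. In at least 1 of the 4 sets 7 of the 10 had a peak, against 24.7% of protein-coding genes, and su(Hw), ZIPIC and Ibf1 had none. The 10 genes had a median length of 3635 bp, against 2164 bp for protein-coding genes, and a longer gene offers more room for a summit. Among genes of at most 6000 bp, 4 of 9 members had a pooled peak, against 17.6% of protein-coding genes. A summit lay within 500 bp of one of the gene's own starts at 4 of the 10 in the pooled set (BEAF-32, M1BP, Chro and pita), against 13.7% of protein-coding genes. It did so at 5 in the conservative set (12.7% of protein-coding genes), at 4 in replicate 1's (9.88%) and at 5 in replicate 2's (10.5%). With so few genes these counts describe the list and no test was made of them.

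Sequences are printed for the loci on which the account turns, from the plus strand of the RefSeq genome sequence of Release 6 (dm6), with the summit at the middle base where not stated otherwise. The first 3 are summits of pooled peaks, and Chro and mod(mdg4) peak 1 are cut to 29 bases because they lie in 5′ untranslated sequence. Capitals mark CGATA in Chro and the longest run of A and T in the other 2.
M1BP, chr3R:8731971-8732071: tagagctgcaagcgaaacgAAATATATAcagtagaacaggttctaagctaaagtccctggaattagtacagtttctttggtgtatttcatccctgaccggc
Chro, chr3L:22878886-22878914: gcctgtCGATAgctttaaactaactgcag
mod(mdg4) peak 1, chr3R:21365404-21365432: taaacatattacTAAATTATAgcaaaata

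The fourth, chosen after its values were seen, is the stretch between Cp190 and CG4338. The outermost start of Cp190 is its base 5, and CG4338 starts 1 bp past its last base. The pooled summit is base 215 of 285, and capitals mark the DRE (TATCGATA) and a CGATA beside it, both at the Cp190 end.
Cp190 to CG4338, chr3R:15275237-15275521: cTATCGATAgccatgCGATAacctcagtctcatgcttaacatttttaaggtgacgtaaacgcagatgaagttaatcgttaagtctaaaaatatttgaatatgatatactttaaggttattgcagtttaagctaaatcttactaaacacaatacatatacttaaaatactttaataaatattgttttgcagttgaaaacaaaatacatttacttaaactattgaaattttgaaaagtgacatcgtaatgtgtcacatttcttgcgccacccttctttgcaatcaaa

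Among the DNA-binding proteins, BEAF-32 (FBgn0015602) had its peak at its own promoter. The peak covered 2R 14770236 to 14770575, with the summit 63 bp upstream of the start. Its signal was 78.4 in replicate 1, 89.8 in replicate 2 (84.1 ± 8.06, mean ± SD, n = 2) and 173 in the pooled set, where it ranked 898 of 3571. The antisense RNA gene asRNA:CR42254 has a start 136 bp from the same summit on the other strand, and the summit lies in its exon.

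M1BP (FBgn0037621) shares its peak with a neighbour. The peak covered 3R 8731851 to 8732190 in the gap between M1BP and CG8202, which run in opposite directions. The summit was 323 bp upstream of M1BP and 70 bp upstream of CG8202. Signal was 77.8 in replicate 1, 63.2 in replicate 2 (70.5 ± 10.3, SD, n = 2) and 155 in the pooled set (rank 1059), so the order of BEAF-32 and M1BP held in each list but in replicate 1 they differed by less than either gene's spread between replicates. With its summit nearer to CG8202, the peak cannot be assigned to 1 of these genes from position alone.

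pita (FBgn0034878) was counted for 2 peaks of unequal standing. The stronger, 2R 23548006 to 23548199, had signals of 160 in replicate 1 and 174 in replicate 2 (167 ± 10.5, SD, n = 2), and 332 in the pooled set (rank 286). Its summit lay 875 bp beyond the 3′ end of pita, in the 5′ untranslated sequence of wmd, 59 bp downstream of the wmd start and 147 bp upstream of levy, which encodes a subunit of cytochrome c oxidase. This peak is therefore counted for pita by distance only, while 2 other genes start beside it. The weaker peak, 2R 23554415 to 23554754, was at the pita promoter, 127 bp downstream of the start in its 5′ untranslated sequence. Its pooled signal was 91.9 (rank 2218), and in the replicates it appeared only in the ranked lists, at 54.7 (IDR 0.0234) and 41.5 (IDR 0.168; 48.1 ± 9.33, SD, n = 2). Of the 9 member loci it was the only one kept in the pooled and conservative sets and in neither replicate's own set.

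CTCF (FBgn0035769), whose product is the fly form of the vertebrate boundary factor, had a peak in replicate 2's own set only. It covered 3L 7356338 to 7356647, 220 bp downstream of the start in an intron and in an exon of asRNA:CR45822, with a signal of 47.5 (rank 2096 of 2434, IDR 0.00503). A second listed peak of replicate 2 overlapped it with a signal of 5.31. This weaker peak covered 3L 7356537 to 7356846, with its summit at 7356692, and so included the CTCF start at 7356713. Replicate 1's ranked list had no entry overlapping either peak, and its strongest entry at CTCF was 24.3, 860 bp downstream of the start. In the pooled ranked list the entry there had a signal of 72.0 and an IDR of 0.273. That is slightly above the signal of the weakest kept member peak (70.9, mod(mdg4) peak 2, IDR 0.00265), while every kept peak had an IDR of at most 0.00999.

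The remaining DNA-binding members had no peak in any of the 4 sets. For ZIPIC, which encodes a zinc-finger partner of Cp190, the strongest entry in the ranked lists was 53.5 pooled (IDR 0.702), 32.3 in replicate 1 and 24.3 in replicate 2, between 409 and 456 bp downstream of its start in the 3 lists. In the conservative ranked list the same entry had an IDR of 0.0466. For su(Hw), which encodes the protein that binds the gypsy insulator, the strongest was 41.4 pooled (IDR 0.700), 21.8 in replicate 1 and 25.1 in replicate 2, at 4855, 3261 and 808 bp from its start, so the lists did not point to 1 place. For Ibf1, which encodes a Cp190-binding insulator factor, it was 38.2 pooled (IDR 0.118) and 21.7 in replicate 2. These entries lay 1655 and 1692 bp downstream of its start, beyond the 3′ end of the gene, which is 1437 bp long. The list of replicate 1 had no entry at Ibf1, in a stretch of 16010 bp without any entry, where that of replicate 2 had 18. The conservative ranked list had none at Ibf1 either, in a stretch of 14363 bp. An absent entry there is not a measured signal of 0.

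Chro (FBgn0044324) had the strongest peak of the 10 genes. It covered 3L 22878751 to 22879046, with a signal of 619 in replicate 1, 683 in replicate 2 (651 ± 45.1, SD, n = 2) and 1298 in the pooled set, where it ranked 12 of 3571. The summits of the replicates were 1 bp apart, against a median of 16 bp over the shared pooled peaks. The summit lay 84 bp downstream of the outermost Chro start, in its 5′ untranslated sequence, and 189 bp upstream of Ssl1, which encodes a subunit of the transcription factor TFIIH and runs the other way. The CGATA printed above lies beside the summit. Closest to it in pooled signal were the peaks whose nearest protein-coding starts were eIF6 (1331, ribosome biogenesis factor) and PNPase (1309, an RNA-degrading enzyme of mitochondria) just above, and tara (1289, at 3153 bp upstream) and CenG1A (1252) just below.

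Cp190 (FBgn0000283) was strong in each list but missing from the pooled set. Its signal was 171 in replicate 1 (rank 289 of 2309), 189 in replicate 2 (rank 218 of 2434; 180 ± 12.5, SD, n = 2) and 366 in the pooled and conservative lists, above pita and mod(mdg4). The peak covered 3R 15275319 to 15275509, 210 bp upstream of Cp190 and 71 bp upstream of CG4338, in the stretch printed above. Its IDR was 1e-05 in the conservative list and in both replicates' lists, the lowest value given, and 0.767 in the pooled ranked list. Of the 248 pooled entries with a signal at or above it, 238 were kept and 10 were not. Of these 10, 9 had an IDR no higher than the highest of any kept peak (0.00999), which leaves Cp190 as the 1 entry above that rate. The replicates' summits at Cp190 were 68 bp apart, near the 95th percentile of 73 bp over shared peaks, and the interval was 191 bp wide where most pooled peaks (2912 of 3551) were 340 bp and 421 (11.9%) were narrower than 200 bp. In the replicates it was 86 and 106 bp wide. pita peak 1, which was kept in all sets, was 194 bp wide in the pooled set and 84 and 154 bp in replicates 1 and 2. Its IDR in the pooled ranked list was 1e-05. Whether width or summit position bears on the pooled IDR was not tested.

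mod(mdg4) (FBgn0002781) makes many proteins by joining exons from separate precursor transcripts, and 23 precursor genes, named pre-mod(mdg4) with a letter, are annotated on the same span of 26556 bp. Its stronger peak, 3R 21365248 to 21365587, had signals of 158 in replicate 1 and 158 in replicate 2 (158 ± 0.367, SD, n = 2) and 319 in the pooled set (rank 304). The summit was 11983 bp downstream of the mod(mdg4) start. It was 70 bp downstream of a start of pre-mod(mdg4)-E, and 10 of the 23 precursor genes had a start within 500 bp of it, 7 of them on the plus strand and 191 bp away. The second peak, 3R 21369308 to 21369647, was 4060 bp away, with a signal of 34.6 in replicate 1's ranked list (IDR 0.0405), 43.9 in replicate 2 (39.3 ± 6.57, SD, n = 2) and 70.9 in the pooled set (rank 2984). No precursor start lay within 500 bp of it, the nearest being 1349 bp away. At the mod(mdg4) start itself the nearest pooled entry was 228 bp downstream, with a signal of 24.1 (IDR 0.449), outside the thresholded set.

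**Figure D1:**
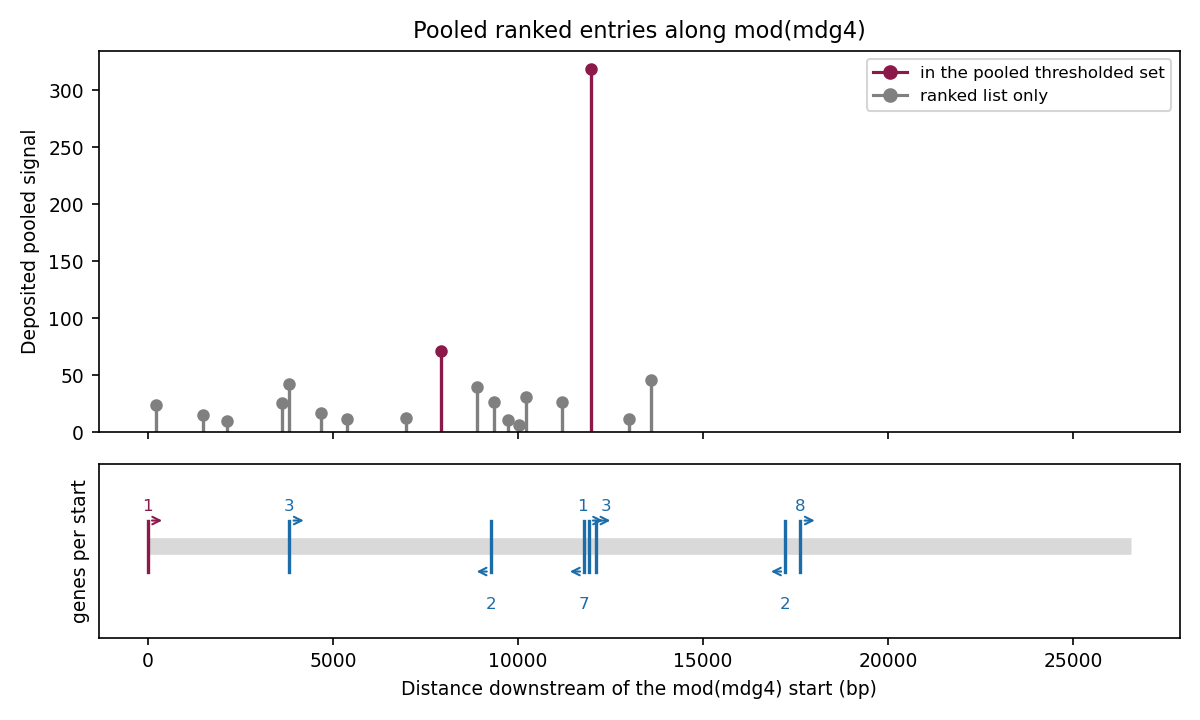
Deposited pooled signal of each entry in the pooled ranked list (vertical axis) by distance in bp downstream of the mod(mdg4) start (horizontal axis), above a map of annotated starts with the number of genes per start. The peaks at 319 and 70.9 are in the thresholded set and grey entries are not. The list has no entry past 13603 bp.

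The stretch to the right of the last pooled entry is 1 of the places where the lists have gaps. The pooled ranked list had none for 15897 bp there and replicate 1's for 20393 bp, where the list of replicate 2 had 19 entries, so an absent entry at the 3′ end of mod(mdg4) is not a measured absence of signal. The bounds of mod(mdg4) also differ in RefSeq, which ends it at 21370101. The other 9 genes have the same bounds there.

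The replicates' signals for the 9 loci, set side by side, show which are high and which are low. Chro stood above the rest, at 619 and 683 in replicates 1 and 2. Cp190, pita peak 1 and mod(mdg4) peak 1 lay between 158 and 189 in both replicates, with spreads between replicates of 0.367 to 12.5. Their order, with Cp190 highest and mod(mdg4) peak 1 lowest, was the same in both replicates and in the pooled list, although the ranges of Cp190 (171 to 189) and pita peak 1 (160 to 174) overlap. BEAF-32 and M1BP lay between 63.2 and 89.8, and the loci without a peak in both replicates' own sets at or below 54.7. The 5 loci in all 4 sets were Chro, pita peak 1, mod(mdg4) peak 1, BEAF-32 and M1BP. Replicate 2 over replicate 1 ran from 0.812 at M1BP to 1.15 at BEAF-32 over the loci found in both own sets, inside the 5th to 95th percentile of all shared peaks.

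**Figure D2:**
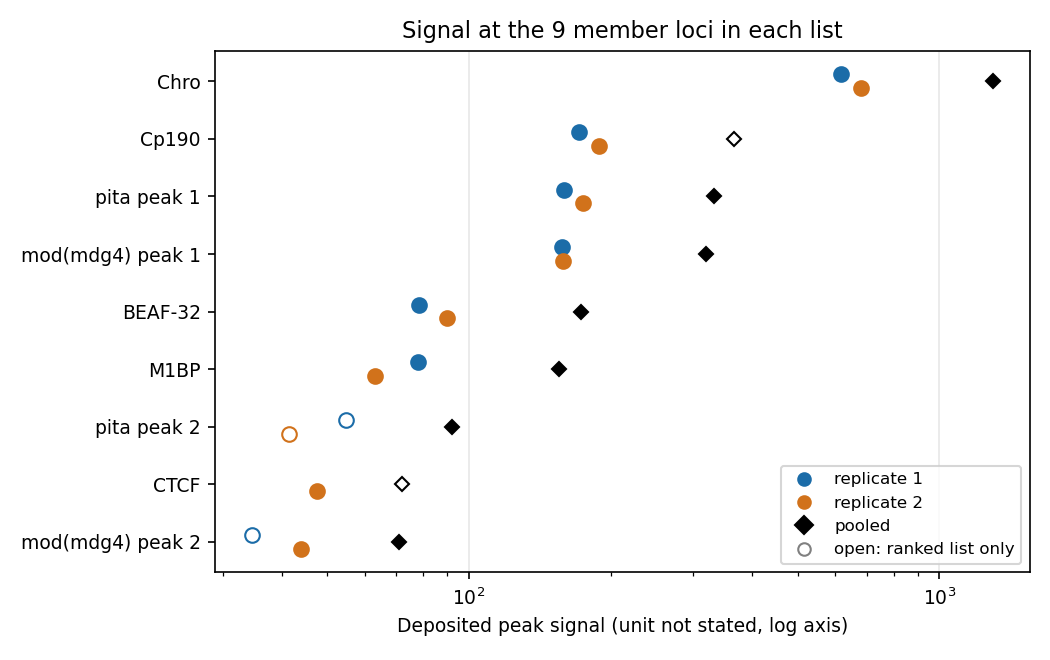
Deposited signal of each of the 9 member loci (log axis, unit not stated) in replicate 1, replicate 2 and the pooled list, with open symbols for entries in a ranked list only. Chro is highest in each list, and CTCF has no replicate 1 value.

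**Figure D3:**
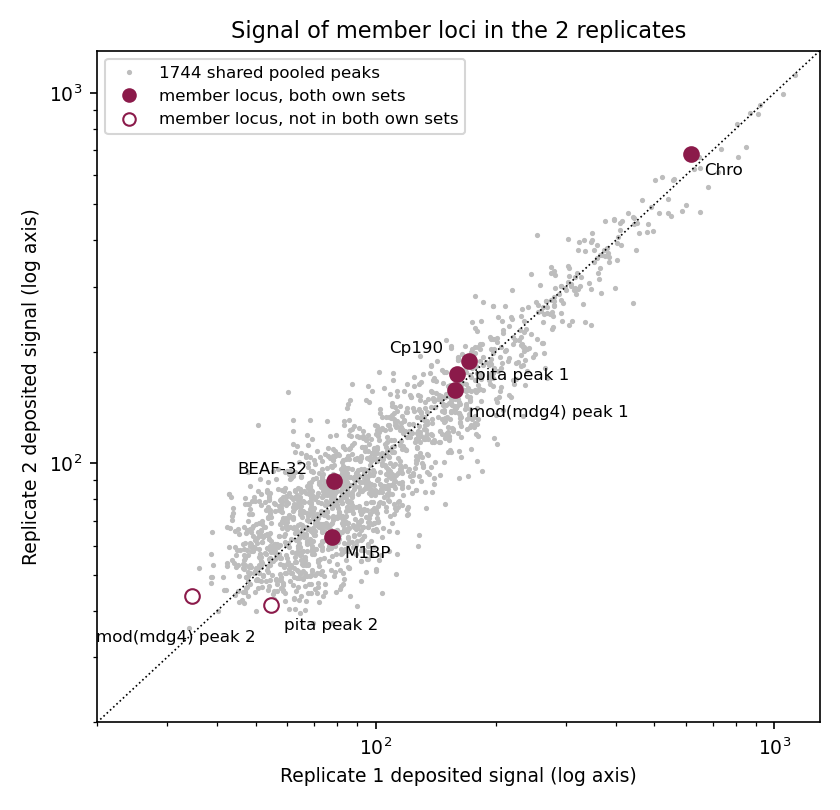
Signal in replicate 2 against replicate 1 (log axes, unit not stated), with 1744 shared pooled peaks in grey and member loci in red, open where the locus is not in both replicates' own sets. The 6 filled loci lie along the dotted line of equal signal among the grey points.

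Ordered by the strongest pooled ranked entry, Chro stood 25th of 13968 protein-coding genes (0.172% were higher), Cp190 354th, pita 423rd, mod(mdg4) 445th, BEAF-32 1170th and M1BP 1351st. CTCF followed at 3063rd, ZIPIC at 4591st, su(Hw) at 7527th and Ibf1 at 8511th. The median strongest signal was 164 for the 10 genes, against 43.1 for all protein-coding genes, in the pooled list. In replicate 1 it was 78.1 against 24.0 and in replicate 2 76.5 against 24.1, with genes without an entry counted as 0. The 10 genes were longer (median 3635 bp, against 2164 bp), and a longer gene offers more room for a strong entry. No median for genes of like length is given. Several places in this order rest on entries that are nearer to other genes: pita's on the peak at wmd and levy, Cp190's on an entry nearer to CG4338 with an IDR of 0.767 in that list, M1BP's on a summit nearer to CG8202, and mod(mdg4)'s on peak 1, beside the precursor starts. Within the RefSeq bounds of mod(mdg4) and 1 kb around them its pooled peak is peak 2, at 70.9, against 319 for peak 1.

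**Figure D4:**
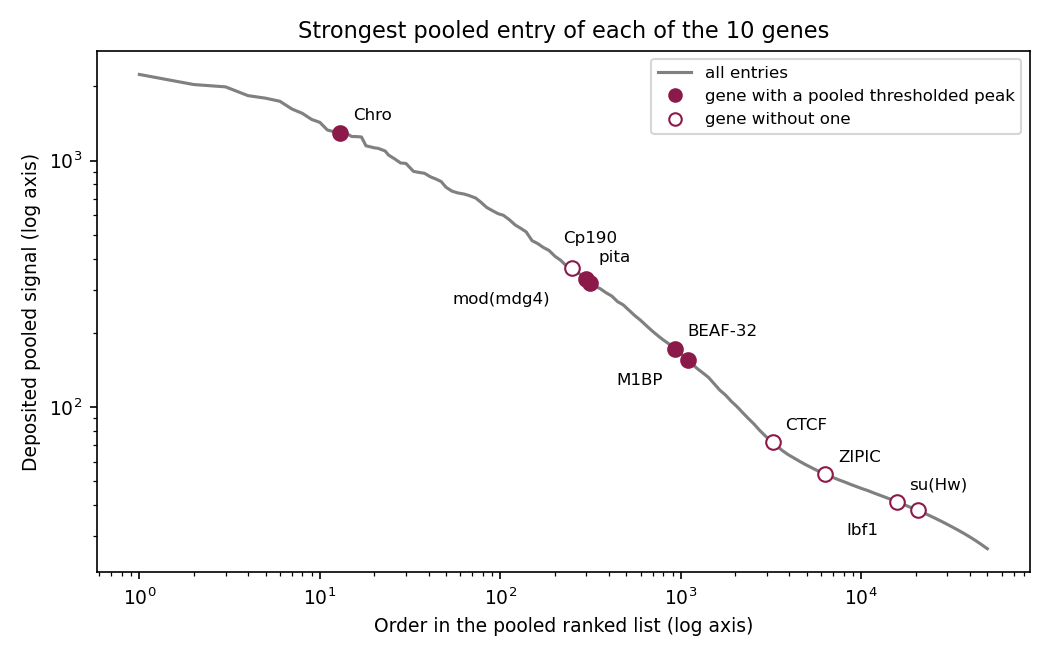
Deposited signal in the pooled ranked list by order (log axes), with the strongest entry of each of the 10 genes marked and filled where the gene has a pooled thresholded peak. Cp190 lies at 366, above 4 filled genes, and is open.

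Of the 9 loci, 8 had at least 1 annotated start within 500 bp of the summit, and mod(mdg4) peak 2 had none. Of the 7 pooled member peaks 6 had one, against 43.5% of the 3551 pooled peaks, and 5 had starts of 2 or more genes, against 17.6%. The members were counted by distance to a gene, which the whole set was not, so these shares are a description. At M1BP, Chro and Cp190 the other start belongs to a protein-coding gene running in the opposite direction (CG8202, Ssl1 and CG4338), at BEAF-32 and CTCF to an antisense RNA, and at pita peak 1 and mod(mdg4) peak 1 the starts belong to other genes. pita peak 2 is the one locus near a start of its own gene alone.

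**Figure D5:**
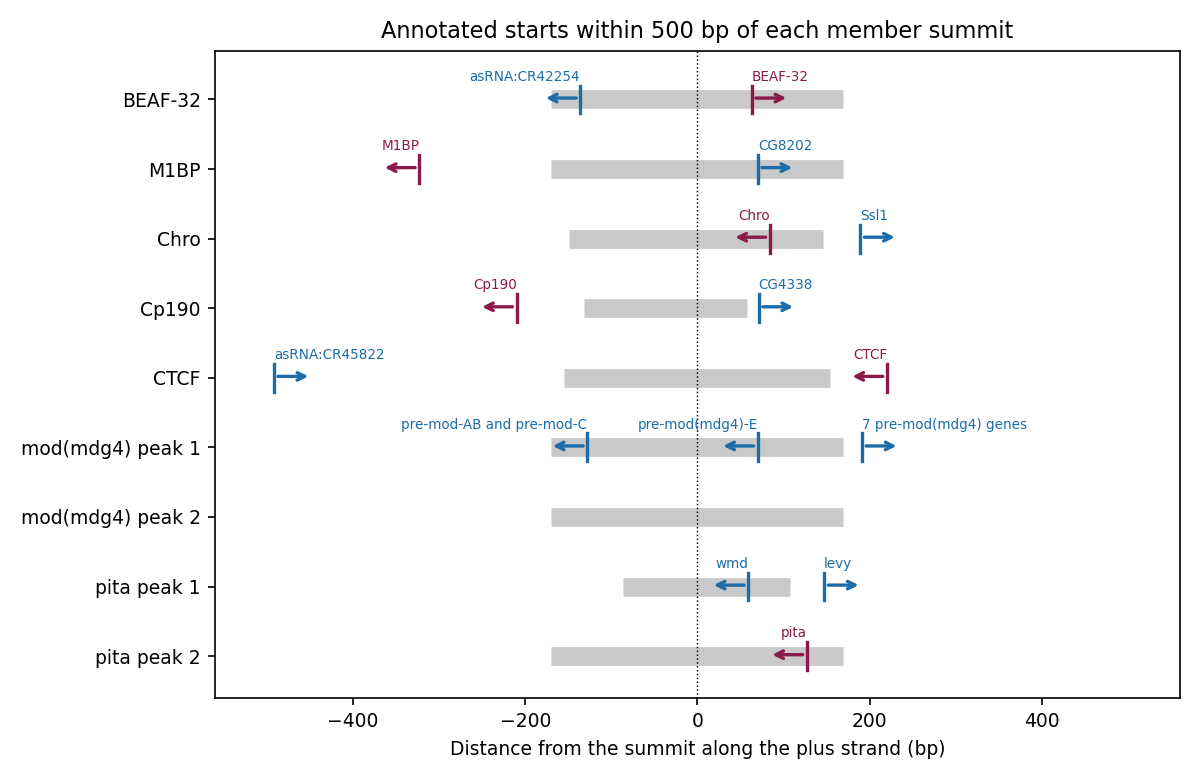
Position of annotated starts (ticks, arrows in the direction of transcription) against the summit of each of the 9 member loci (distance along the plus strand, bp), with the peak interval in grey, member starts in red and other starts in blue. 7 of the 9 loci have a start of another gene within 500 bp, and mod(mdg4) peak 2 has no start.

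Base composition at the summits matched the whole set in its median. Within 50 bp of the summit the 7 pooled member peaks had a median A+T share of 67.3%, equal to that of all 3551 pooled peaks (quartiles 59.4% to 73.3%). It ran from 49.5% at mod(mdg4) peak 2 to 75.2% at mod(mdg4) peak 1, with Cp190 at 74.3%, pita peak 1 at 71.3%, pita peak 2 at 69.3%, BEAF-32 and Chro at 67.3% each, M1BP at 58.4% and CTCF at 47.5%. Windows 500 bp to each side averaged 37.6% at pita peak 1, 48.0% at M1BP and 58.9% at Chro, each below the summit, while at mod(mdg4) peak 2 they averaged 63.9%, above the summit. The lowest shares were at CTCF and mod(mdg4) peak 2, which had low signals, while pita peak 2, of similar signal, was near the median. No annotated transposable element overlapped any of the 9 loci.

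Motifs were read as letters on both strands, in the promoter from 250 bp before to 50 bp after the outermost start and in the 101 bp around summits. The DRE, TATCGATA, was in 6 of the 10 promoters (BEAF-32, Cp190, CTCF, mod(mdg4), pita and Ibf1), against 9.36% of 13968 promoters. It was in none of the 9 member summit windows, against 0.873% of 3551, and in 2 of the 9 whole peak intervals, BEAF-32 and pita peak 1. For CTCF the interval searched was that of the stronger peak. The second, overlapping peak of replicate 2 at CTCF (3L 7356537 to 7356846) covers a DRE 17 bp upstream of the CTCF start. No share over all pooled peak intervals is given, so the count of whole intervals has no background beside it. The nearest DRE lay 95 bp from the summit at pita peak 1, 144 bp at BEAF-32, 191 bp at pita peak 2, 210 bp at Cp190 and 237 bp at CTCF. Within 1000 bp of the other 4 summits there was none. CGATA, which the DRE contains, was in 7 of the 10 promoters, against 47.3%, and in 3 of the 9 summit windows (Chro, CTCF and pita peak 2), against 13.1%. The shares for summit windows are over the pooled set, which lacks the Cp190 and CTCF loci, and the CTCF window is that of a replicate 2 peak. Motif 1, GGTCACACT, was in the promoters of ZIPIC and su(Hw), against 6.04% of promoters, and not in that of M1BP, which encodes its binding protein. GAGAG was in 0 of the 10 promoters, against 29.7%, AGGTGGCG (part of the CTCF motif) in 0, against 0.687%, and TATAAA in 6, against 45.8%. TATATTAA was in 1, su(Hw), against 5.36%, and in 1 summit window, pita peak 1, against 3.86%. AGATGGCG was in 1, CTCF, against 0.966%. The last pair was taken from earlier results of these data. Of the 6 genes with a DRE in the promoter, BEAF-32, Cp190, CTCF, mod(mdg4) and pita had a peak in at least 1 set and Ibf1 had none. Of the genes without one, M1BP and Chro had a peak, and ZIPIC and su(Hw) had none. Whether the DRE bears on the peaks was not tested.

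A list of 25 other boundary, promoter and loop-forming protein genes gave 8 with a pooled peak, against 22.7% of protein-coding genes. The conservative set held 8 (21.3% of protein-coding genes), replicate 1's own set 6 (16.6%) and replicate 2's 7 (17.4%). Of 11 DNA-binding proteins 3 had a pooled peak (Trl, ttk and psq), of 8 cofactors 3 (pzg, JIL-1 and fs(1)h) and of 6 cohesin and condensin genes 2 (SA1 and Cap-H2). These classes are small, and the share to read beside each is the same 22.7%. Some of these genes are long, such as psq (2R 10557888 to 10617280), and no share for genes of like length is given. By the promoter rule 7 of the 25 had a pooled summit within 500 bp of an own start, against 13.7% of protein-coding genes. Trl, which encodes GAGA factor, had 4 peaks, the strongest in an intron of Trl and nearest to the start of CG42507. The signal of this peak was 452 in replicate 1, 445 in replicate 2 (448 ± 4.96, SD, n = 2) and 895 pooled, below Chro and above the other 9 members. JIL-1, which encodes a histone H3 kinase that associates with Chromator, reached 198 and 204 in replicates 1 and 2 (201 ± 4.05, SD, n = 2), above Cp190. This was the strongest of 3 pooled peaks at JIL-1, in an intron 7066 bp downstream of its nearest start. SA1, a cohesin subunit, had 153 and 163 (158 ± 7.01, SD, n = 2) at a summit 109 bp upstream of its start and nearest to the start of Gas41. pzg, which encodes a partner of Chromator, had 71.0 and 70.8 (70.9 ± 0.142, SD, n = 2), close to M1BP. That summit lay 210 bp upstream of the pzg start, in the 5′ untranslated sequence of CG12974, whose start was the nearest. Dref, whose product binds the DRE, had a peak only in replicate 2's own set. SMC1, vtd, Nipped-B, Clamp and pho had no entry in the pooled ranked list, as had 1046 protein-coding genes (7.49%) and 0 of the 10 members. The lists have gaps, so such an absence is not a measured signal of 0.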

How the data were processed

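The values are peak lists of 2 biological replicates, which form 1 group. Per the labels, the tag was an eGFP fusion to CG4730, embryos were 0 to 24 hours old and chromatin was sonicated to 200 to 800 bp. The deposited signal of each peak has no stated unit, and a column of the authors' ranked lists holds −log10 of the global IDR. Each pooled ranked list was matched to its thresholded set by shared intervals and scores. Coordinates are on dm6, per the labels. Aligner, peak caller and read depth: not given in the sources used here. A control library was not analysed here. The ranked lists hold 32 unnamed columns on the compared inputs, which were not used.

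Summits were placed on genes of the Ensembl release 115 annotation (BDGP assembly 6), and sequences came from the RefSeq genome of Release 6. Peaks count as found in both replicates where they overlap by at least 1 bp. The 10 genes, the list of 25 others and the motifs were chosen with earlier results of these data known. All 10 genes are named, with up to 8 of the 25 by pooled signal (Dref and the 5 without a pooled entry were named after their values were seen), genes with a start within 500 bp of a member summit, and the peaks next to that of Chro in signal. Means and SDs are over the 2 replicates, from a replicate's own set or, where that has no peak, its ranked list. No test was made. Counting and placement were tested on simulated data. Python 3.11.15, numpy 2.4.6, pandas 2.3.3 and matplotlib 3.10.9 were used with seed 1. Alternatives were the conservative, stronger and single-replicate sets, other windows, overlaps and summit widths, and, chosen after seeing the data, a union of the 4 sets, RefSeq gene bounds and a stricter promoter rule.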

Additional observations from a re-analysis of the deposited data

How the results depend on the processing

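Over all alternatives the number of the 10 genes with a peak ran from 5 to 7, their peaks from 5 to 9, genes with a summit within 500 bp of a start from 3 to 5, and peaks in both replicates' own sets from 4 to 6. With a window of 2 kb the 10 genes counted 5, against 27.9% of protein-coding genes, and with 500 bp 5, against 20.3%. By any overlap of the peak interval they counted 5, against 23.6%. In the stronger 1786 pooled peaks the 10 genes still counted 5, while the share of all protein-coding genes fell to 14.3%, against 22.7% in the whole pooled set. Of these 5, pita was counted only through the peak beside wmd and levy, and mod(mdg4) only through peak 1. Genes with a summit within 500 bp of a start fell from 4 to 3 in this stronger part. No share of all protein-coding genes by that rule is given for it. Without 1 replicate, which leaves the own set of the other, the 10 genes counted 6 to 7, their peaks 6 to 9, promoter genes 4 to 5, the share of all protein-coding genes 16.6% to 17.4%, the 25 other genes 6 to 7 and the median A+T share 65.3% to 69.3%. Without replicate 2 CTCF has no peak, and without replicate 1 it has one. A global IDR of 0.01 changed nothing, since all kept peaks lie below it. The RefSeq bounds of mod(mdg4), an alternative chosen after seeing the data, left 6 peaks and 5 genes: mod(mdg4) loses peak 1 (pooled signal 319) and keeps only peak 2 (70.9). Pooled signals are about the sum of the replicates and are not set beside their means.

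No paired analysis was possible because the labels give 1 group only. The depth behind a signal is unknown, no counting interval is given, and each spread rests on 2 replicates.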
